A study of Canis lupus familiaris with 17 samples.

Results

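Cycling T cells are T lymphocytes caught in the blood while they copy their DNA or divide. They were picked here by their own transcripts: a cell barcode counted as a cycling T cell when it held at least 1 unique molecular identifier (UMI, a single captured RNA molecule) of CD3E, a chain of the T cell receptor complex, none of MS4A1, the B cell antigen CD20, and at least 1 UMI of 4 or more of 8 proliferation genes (TOP2A, MKI67, RRM2, TPX2, ASPM, KIF11, DIAPH3 and TK1). Barcodes entered with over 200 genes, between 500 and 40000 UMIs and under 10% mitochondrial UMIs. The rule found 314 cycling T cells among 46370 T barcodes (CD3E without MS4A1) and among 87150 barcodes that passed the limits in all. They made up 0.677% of the T barcodes, with a 95% Clopper-Pearson interval from 0.605 to 0.756%. This interval covers counting error over pooled barcodes only and not the spread between dogs, whose shares ran from 0.126 to 1.29%.

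Most T cells in blood are quiescent. When a T cell meets its antigen it leaves quiescence, and cyclin-dependent kinases release the E2F factors that switch on the genes of DNA replication (S phase). Later, cyclins A and B, the Aurora and Polo kinases and the spindle proteins carry the cell through G2 and mitosis (G2M). A gate on proliferation genes therefore gathers cells of any T cell class that happen to be dividing, and which classes these are is a separate question.

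The study sampled circulating leukocytes of client-owned dogs, which were privately owned pets of mixed breeds and both sexes and not an inbred colony. The 7 healthy dogs were middle-aged, clinically healthy animals, and the 10 dogs with osteosarcoma (OS), an aggressive bone tumor, had a primary tumor and no earlier treatment, and included older dogs. All were recorded as wild type, and all cells were primary cells from blood separated on Ficoll with the red cells lysed, captured with 10x Genomics 3' v3.1 chemistry at 1 library per dog. The ages of the groups overlapped in part, the part of age in the results was not tested here, and no sequencing batch is known.

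The 93013 barcodes came from libraries of 1332 to 7748 barcodes, with a total of 7740230 to 56510134 UMIs per library. OS dog 3 had the smallest library, 1253 kept barcodes, and only 1 cycling T cell. It entered the comparison of shares but no comparison of expression, which used the 16 dogs (7 healthy, 9 OS) with at least 10 cycling T cells. Barcode sequences found in more than 1 library numbered 988, at most 16 for a pair of libraries, and 7 of the 314 cycling T cells carried such a sequence, of which 0 were shared by 2 cycling T cells.

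The rule chose the cells by the 8 gate genes, so the levels of these genes are a description and not a result. MKI67, which encodes the proliferation marker Ki-67, had a UMI in 94.6% of cycling T cells, and TPX2, a spindle assembly factor, in 92.0%. TK1 (thymidine kinase) followed with 88.9%, the mitotic motor KIF11 with 87.6%, and RRM2, a subunit of ribonucleotide reductase, with 84.4%. DIAPH3, a formin of the cytokinetic furrow, was seen in 82.8%, TOP2A (DNA topoisomerase II alpha) in 72.9% and ASPM, a spindle pole protein, in 68.2%. Among the other T barcodes, no gate gene was seen in more than 3.14%.

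Expression is given below as CPM, the UMIs of a gene summed over the cells of a dog, per 1000000 UMIs of that sum after TMM scaling of the sums. Summed levels of marker lists, and levels pooled over dogs by lineage class, are per 1000000 UMIs without TMM scaling. TOP2A lay between 275 and 814 CPM (median 469) in the cycling T cells of the 16 dogs and between 0.834 and 3.25 CPM in the other T cells. RRM2 lay between 232 and 472 CPM against at most 1.81 CPM. CD3E, required of both populations, was at a median of 743 CPM in cycling and 869 CPM in other T cells.

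The gate separated a small upper end from a long tail. Of the T barcodes, 41642 had a UMI of 0 gate genes, 3941 of 1, 385 of 2, 88 of 3, 35 of 4, 42 of 5, 45 of 6, 48 of 7 and 144 of all 8. Just outside the gate, the 88 barcodes with 3 gate genes had a median of 9925 UMIs, of which 10 were of a 40-gene S list and 20 of a 46-gene G2M list that hold none of the gate genes. Just inside it, the 35 barcodes with 4 gate genes had a median of 13206 UMIs, 25 of the S list and 56 of the G2M list.

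**Figure D1:**
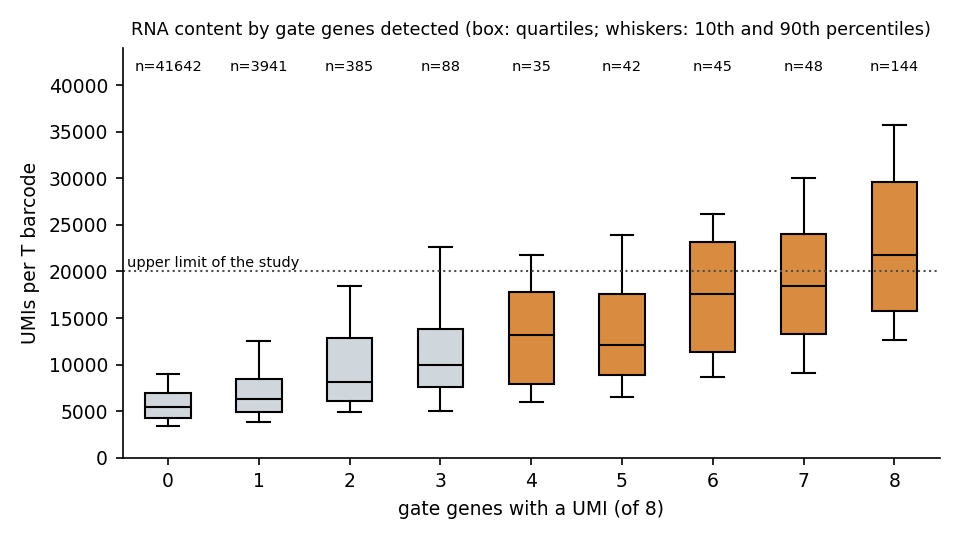
UMIs per T barcode (vertical axis) by the number of the 8 gate genes with a UMI (horizontal axis), over all 17 dogs; boxes give quartiles with the median line, whiskers the 10th and 90th percentiles, orange boxes the cycling T cells, and the dotted line the upper limit of 20000 UMIs that the study set. The median climbs from 5479.5 UMIs at 0 gate genes to 21760.5 UMIs at 8.

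Cycling T cells held more RNA than other T cells of the same dog. Their median was 18538.5 UMIs (quartiles 12904 and 24671) and 4051 genes, against 5562 UMIs and 2061 genes in other T barcodes. The ratio of the medians lay between 2.52 and 4.57 in the 16 dogs (median 3.44), above 1 in each of them. A barcode with more UMIs also has more chances to show 4 gate genes, so this ratio was used by the rule in part and carries no test. The study's own limits of fewer than 4500 genes and 20000 UMIs would have left out 136 cycling T cells (43.3%) but 1.12% of other T barcodes. Mitochondrial UMIs made up a median of 5.41% in cycling and 3.095% in other T cells.

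The label was checked against 10 T cell markers, among them CD3D, CD3G, CD2, CD5, LCK, THEMIS, BCL11B, TRAT1 and CD28. A cycling T cell had UMIs of a median of 7 of the 10, and 292 of 314 (93.0%) had at least 5. Of the other T barcodes, which held fewer UMIs, 80.9% had at least 5, and such shares grow with depth. The summed level of the 10 markers lay between 1135 and 2029 CPM in the healthy and between 1315 and 1846 CPM in the OS dogs, below the 2048 to 3209 CPM of other T cells in every dog. Of 10 markers of blood progenitors 5 (CD34, KIT, GATA2, HPGD and NDST3) were at 0 UMIs in the cycling T cells of all 16 dogs, and by the call rule given below 3 of the 10 were lower and 1 higher than in other T cells, where 16.5 and 10.4% of all genes were. Summed, the 10 lay between 0 and 16.9 CPM in healthy and between 3.05 and 40.2 CPM in OS dogs, against 10.8 to 27.4 and 9.09 to 30.8 CPM in other T cells, and their part in the results was not tested. Of the 10 erythroid markers 4 were at 0, SLC4A1, AHSP and CA1 among them, while HBM had a UMI in 1.27% of cycling and 0.378% of other T cells. Summed, the erythroid markers lay between 0 and 4.18 CPM in healthy and between 0 and 32.0 CPM in OS dogs. In other T cells they lay between 1.39 and 4.49 CPM in healthy and between 0.570 and 107 CPM in OS dogs.

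A share of the cycling T cells also carried transcripts of other leukocytes. At least 5 of 10 plasma cell markers had a UMI in 28 cycling T cells, and 9 or 10 of them in 14. Such barcodes held 98.6% of the 703 UMIs of JCHAIN (the joining chain of secreted antibodies) and 99.5% of the UMIs of MZB1, which helps to fold antibodies. They were spread over the dogs, 16 in the healthy and 12 in the OS dogs, with at most 6 in a dog. At least 5 of 10 monocyte and dendritic cell markers were seen in 14 cycling T cells, of neutrophil markers in 6 and of B cell markers in 3, and 9 had fewer than 4 of the 10 T cell markers. Together 44 barcodes met at least 1 of these conditions and are called mixed barcodes below. Removing them, a step chosen after the data had been seen, left 270 cycling T cells and 14 dogs with at least 10.

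The same gate without the T cell conditions met mostly plasma cells. Of all 914 kept barcodes with 4 or more gate genes, 567 had at least 5 plasma cell markers, whereas this held for 28 of the 314 cycling T cells. Of the 10 plasma cell markers 9 were higher in cycling than in other T cells by the call rule given below, where 10.4% of all genes were, and 5 without mixed barcodes, where 10.0% were. Summed over the 10 markers, cycling T cells had 156 to 1697 CPM in healthy and 183 to 1498 CPM in OS dogs, and other T cells 107 to 239 and 141 to 235 CPM. CD79A, known as a B cell receptor chain, had UMIs in 100% of cycling and 98.8% of other T barcodes, with 29740 UMIs over the 314 cycling T cells, and the neutrophil gene S100A8 in 93.9 and 78.1%. The 10 B cell markers summed to 2619 to 5947 CPM in cycling and 3825 to 9340 CPM in other T cells, above the T cell markers and nearly all from CD79A, and the source of these UMIs was not tested. Scrublet scores placed 21 cycling T cells (6.69%) among the expected doublets of their library, against 6.26% of other T barcodes.

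No difference in the share of cycling T cells was detected between the groups. In the healthy dogs they made up between 0.413 and 1.29% of T barcodes (median 0.705%, mean 0.7998% ± 0.341, SD, n = 7), and in the OS dogs between 0.126 and 0.972% (median 0.645%, mean 0.612% ± 0.271, SD, n = 10). Healthy dogs 3, 6 and 7 were highest and OS dog 3 lowest, and the groups overlapped between 0.413 and 0.972%. The Hodges-Lehmann difference of OS minus healthy was -0.181 percentage points with a 95% interval from -0.540 to 0.199 (p = 0.315, Wilcoxon Rank Sum test, exact and two-sided). Intervals around the value of a single dog cover counting error only, and at 1 to 32 cells in a dog they were wide, for instance from 0.177 to 0.677% around 0.369% in OS dog 6.

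**Figure D2:**
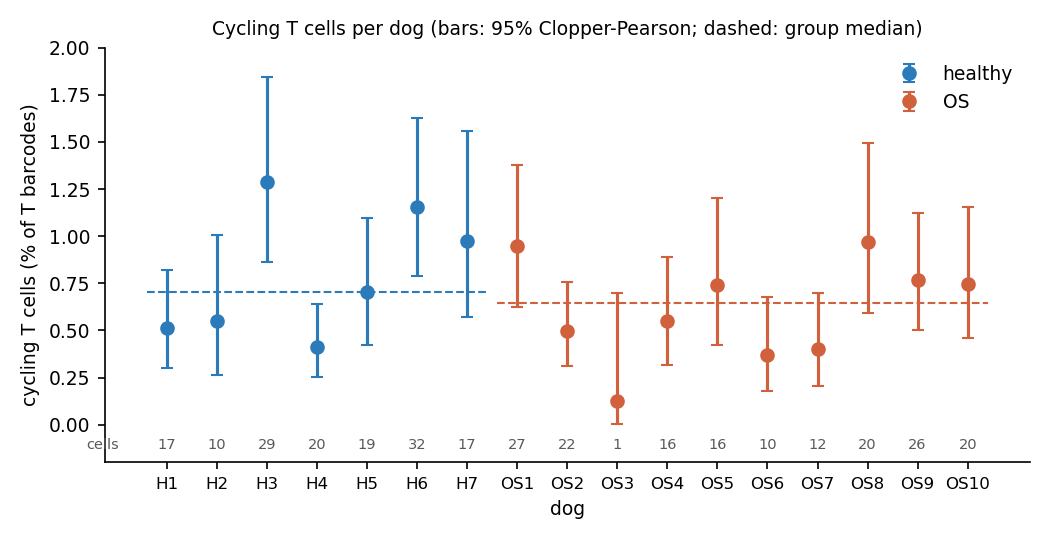
Cycling T cells as a percentage of T barcodes (vertical axis) in each dog (horizontal axis; H1 to H7 healthy, OS1 to OS10 with osteosarcoma); bars are 95% Clopper-Pearson intervals, dashed lines group medians, and the numbers at the foot the cycling T cells counted. The groups overlap, with healthy dogs 3 (1.29%), 6 (1.15%) and 7 (0.975%) above all OS dogs and OS dogs 3 (0.126%, 1 cell), 6 (0.369%) and 7 (0.399%) below all healthy dogs.

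Both arms of the cell cycle were present among the cycling T cells. S list transcripts made up a median of 46.6 of every 10000 UMIs of a cycling T cell (10th to 90th percentile 8.95 to 75.7) against 7.54 in other T cells, and G2M list transcripts 73.3 (33.0 to 155) against 12.7. Over the 99th percentile of other T cells (21.7 for S and 31.6 for G2M per 10000 UMIs) lay 226 cells with both lists, 60 with G2M only, 18 with S only and 10 with neither. S list transcripts outnumbered G2M list transcripts in 97 of the 314 cells. Across cells the 2 values had a Pearson correlation of -0.198, a description over 314 cells that share libraries and the gate. The gate genes belong to the same program, so these values carry no test either. RRM2 and TK1, which serve DNA synthesis, could not meet the gate alone, while TPX2, KIF11, ASPM and DIAPH3 act in mitosis. The counts of S and G2M cells were therefore set by the rule in part.

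**Figure D3:**
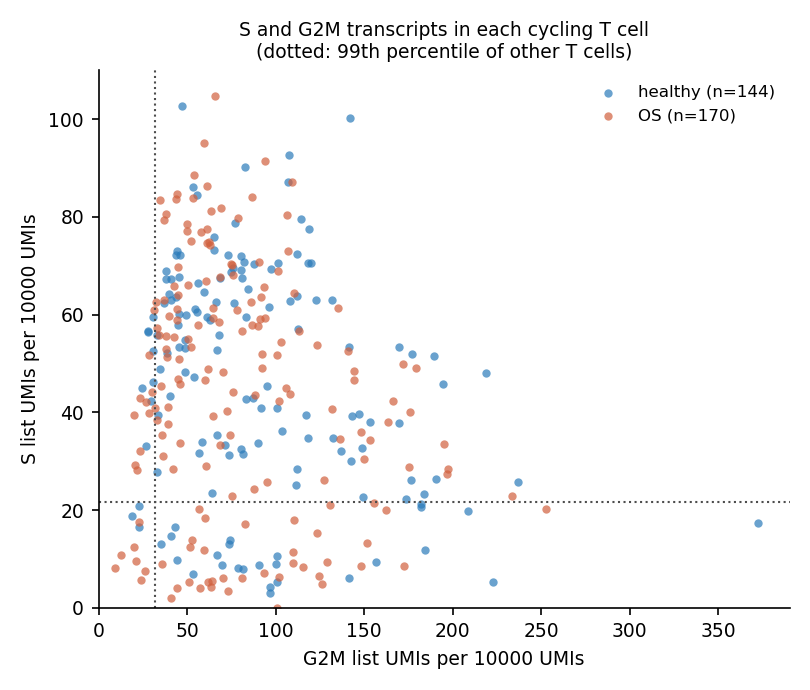
S list UMIs per 10000 UMIs (vertical axis) against G2M list UMIs per 10000 UMIs (horizontal axis), 1 dot per cycling T cell (144 of healthy and 170 of OS dogs); dotted lines are the 99th percentiles of other T cells. A band of cells low on the S list runs along the foot, and 226 cells lie above both lines, with healthy and OS dogs mixed throughout.

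The balance between the phases was compared between the groups on the log2 ratio of summed S to summed G2M UMIs. It lay between -1.34 and -0.58 (median -0.89, n = 7) in healthy dogs and between -1.46 and -0.43 (median -0.86, n = 9) in OS dogs. The groups overlapped almost wholly, with a difference of 0.06 and a 95% interval from -0.35 to 0.35 (p = 0.681, exact Wilcoxon Rank Sum test). Pooled over dogs, the ratio was -1.14 in cycling T cells with CD4 and no CD8A UMI, -0.42 in those with CD8A and no CD4, and -0.73 in those with neither, as a description.

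Genes of the cell cycle outside the gate followed it, and are described by role without a test, because they are switched on with the gate genes in the same cells. Fold changes are log2 values of cycling over other T cells from edgeR with the dog as a block (313 cycling T cells of 16 dogs). Across all 15583 genes tested the median was -0.34 in this fit and -0.28 when edgeR used the scaling factors of DESeq2. In the fit of DESeq2 itself it was 0.13. Each value should be read against such a shift. In the cycle lists a gene counts as higher when its log2 fold change is above 0, whatever its size.

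At entry into the cycle, 13 of 16 G1/S regulators were higher, with a median of 2.37. MYBL2, a partner of the factors that open the late cycle program, lay between 53.0 and 182 CPM in cycling and between 0.104 and 1.54 CPM in other T cells (log2 fold change 7.71). E2F8 (5.92) and E2F7 (5.80), which shut the E2F program down again, followed, and the cyclins CCNE1 and CCNE2, partners of CDK2, were both at 3.63. The exceptions were the D-type cyclins CCND1 and CCND2 (-1.92 for CCND2) and their partner CDK6 (-0.92), which were lower in cycling T cells, whereas CCND3 (0.99) and CDK4 (1.90) were higher.

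Of 37 genes of DNA replication, 37 were higher, with a median of 2.79. CLSPN, the adaptor that signals stalled forks, had 101 to 214 CPM in cycling and at most 1.00 CPM in other T cells (8.44). ORC1, the subunit that marks replication origins, was at 7.33, and MCM5 of the replicative helicase at 5.74, with 42.6 to 206 CPM against at most 3.85 CPM. The sliding clamp PCNA was at 3.99. For nucleotide synthesis 12 of 14 genes were higher, with a median of 1.18. DUT, which keeps uracil out of DNA, went from 39.1 to 93.9 CPM in other T cells to 267 to 622 CPM (2.97), TYMS (thymidylate synthase) was at 2.71 and DCK (deoxycytidine kinase) at 4.49, while CTPS1 (CTP synthase) was lower (-1.39).

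Among chromatin genes of dividing cells 17 of 18 were higher, with a median of 2.18. The linker histone H1-5 reached 193 to 991 CPM from at most 3.75 CPM (8.13), HMGB3 was at 5.34 and EZH2, the histone methyltransferase of Polycomb, at 3.67. All 16 DNA repair genes were higher, with a median of 3.82. EXO1, a DNA exonuclease, was at 5.996 and PARPBP at 5.95.

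Among the 8 cycle lists those of mitosis had the largest medians. Several gate genes act in mitosis themselves, so this order was set by the rule in part. The median was 5.67 for 23 kinases, cyclins and ubiquitin enzymes and 5.24 for 44 genes of spindle, kinetochore and cytokinesis, with 23 and 43 of them higher. UBE2C, the ubiquitin carrier of the anaphase-promoting complex, lay between 52.2 and 192 CPM against at most 0.530 CPM (8.55). Cyclin B2 (CCNB2) was at 8.41 and cyclin A2 (CCNA2) at 8.26. NUF2, which ties kinetochores to microtubules, had 78.9 to 172 CPM against at most 0.642 CPM (8.496), and DLGAP5, a spindle protein, was at 8.04. For the kinesin KIF18B only 2 UMIs were counted in all other T cells against 93 in cycling T cells, too few for a fold. The 11 genes of condensin and cohesin, the rings that compact and hold chromosomes, were all higher with a median of 2.72, led by the cohesin acetyltransferase ESCO2 (6.55), NCAPG (6.38) and SMC2 (4.17).

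Genes outside the cycle lists were tested. A gene was called at an adjusted p below 0.01 (edgeR quasi-likelihood test, Benjamini-Hochberg over all genes tested) and a log2 fold change beyond 0.58. By this rule 1626 of 15583 genes (10.4%) were higher and 2570 (16.5%) lower in cycling than in other T cells of the same dogs, 26.9% in all, and without mixed barcodes 26.8% were called. Since cycling T cells held more UMIs and some were mixed barcodes, each comparison was also made without mixed barcodes and against only those other T cells whose UMIs fell between the quartiles of the cycling T cells of their dog (8 to 125 barcodes in each of 14 dogs). This stricter comparison, added after the data had been seen, called 1431 higher (12.5%) and 1435 lower (12.5%) of 11435 genes, 25.1% in all. Its median was -0.13, and its values are given as at matched depth. Other T cells of matched depth numbered 1375 with mixed barcodes kept and 618 without them, whereas 44 of 314 cycling T cells were mixed. The rule for mixed barcodes can miss a barcode of several T cells, or one with fewer than 5 markers of another cell type. The part of such barcodes in the values at matched depth was not tested.

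**Figure D4:**
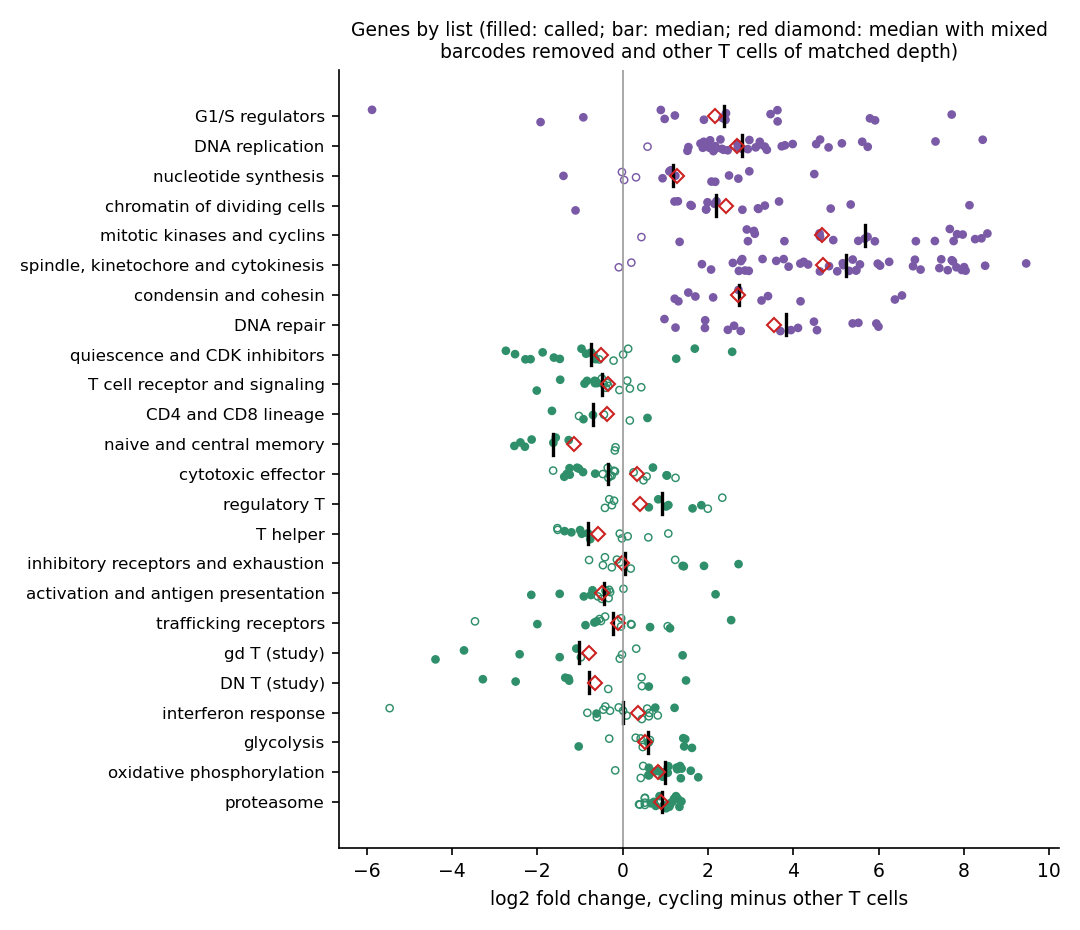
Log2 fold change of cycling over other T cells (horizontal axis) for each gene of 24 lists; purple marks cycle lists and green other lists, filled dots pass the call rule (for cycle lists this is a description), black bars are list medians, and red diamonds list medians at matched depth without mixed barcodes. Cycle lists lie to the right with medians from 1.18 to 5.67, and of the other lists naive and central memory genes lie farthest left (-1.62) and oxidative phosphorylation farthest right (0.99).

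Of 19 genes of quiescence and inhibitors of cyclin-dependent kinases, 12 fell and 3 rose, with a median of -0.74, where 16.5% of all genes fell and 10.4% rose. At matched depth 8 fell and 2 rose, with a median of -0.51, where 12.5% of all genes did each. SATB1, a chromatin organizer of T cells, had 60.4 to 277 CPM in cycling and 393 to 1002 CPM in other T cells, with no overlap over 16 dogs (log2 fold change -2.52, SE 0.12, adjusted p = 4.18e-13 from edgeR). PIK3IP1, an inhibitor of PI3 kinase, fell by 2.74 on the log2 scale with only 14 UMIs left in cycling T cells. TXNIP (-2.28), BACH2 (-2.16) and BTG1 (-1.61), which hold back glucose uptake, effector genes and division, were among the other genes that fell.

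The 3 that rose are inhibitors or pocket proteins that act in the cell cycle itself. They can move with the gate genes in the same cells, so their values are a description, as in the cycle lists. CDKN2C, an inhibitor of CDK4 and CDK6, had 20.9 to 73.2 CPM in cycling against 2.27 to 14.1 CPM in other T cells, without overlap (2.57). RBL1 (p107), a pocket protein that binds E2F factors, rose by 1.69 and CDKN2D by 1.26, while RBL2 (p130), the pocket protein of resting cells, fell by 0.63. At matched depth CDKN2C was at 2.62 and RBL1 at 1.86.

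Of 9 naive and central memory genes 7 fell and 0 rose, where 16.5% of all genes fell, and their median of -1.62 was the lowest of the 16 lists outside the cycle. At matched depth 6 of 9 fell, with a median of -1.13, where 12.5% of all genes did. LEF1, a factor of naive T cells, lay between 44.3 and 496 CPM (median 150) in cycling and between 374 and 1594 CPM (median 973) in other T cells. It was lower in 16 of 16 dogs, although the ranges met (-2.54, SE 0.18, adjusted p = 3.63e-09 from edgeR). IL7R, the receptor of the survival cytokine IL-7, was at 82.5 to 308 CPM against 612 to 1376 CPM, with no overlap (-2.29, SE 0.15, adjusted p = 4.89e-10 from edgeR). CCR7, which leads T cells into lymph nodes, was at a median of 21.2 against 139 CPM (-2.40, SE 0.21, adjusted p = 1.82e-08 from edgeR), and TCF7 (-2.13), LTB (-1.62) and MYC (-1.26) fell as well. NOSIP and S1PR1 were at -0.18 and -0.17 and were not called.

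Of 18 genes of the T cell receptor and its signaling, 8 fell and 0 rose with a median of -0.47, where 16.5% of all genes fell. At matched depth 3 of 18 fell, near the 12.5% of all genes. TRAT1, which steadies the receptor complex, was at a median of 52.9 against 205 CPM (-2.01, SE 0.16, adjusted p = 1.52e-09 from edgeR). It was also called at matched depth (-1.36). The receptor chains CD3D (0.11) and CD3G (-0.34) and the kinase ZAP70 (-0.08) were not called.

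Which lineages were dividing was read from CD4 and CD8A, the coreceptors of helper and cytotoxic T cells. In dogs the study also describes CD4 in neutrophils and in part of the monocytes, so a CD4 UMI alone does not settle the lineage. Mixed barcodes were kept unless stated, and the part of such transcripts in the CD4 shares was not tested. Of the 314 cycling T cells, 127 (40.4%) had a CD4 and no CD8A UMI, 69 (21.97%) CD8A and no CD4, 9 both and 109 (34.7%) neither. Among other T barcodes the first 2 classes made up 31.9 and 17.8%, with 49.4% showing neither. Barcodes with MS4A1 and no CD3E, which should lack both genes, had a CD4 UMI in 1.56% and a CD8A UMI in 0.232% at a median of 4796 UMIs, and the shares in T cells lay above these.

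These shares grow with depth, and cycling T cells were deeper. When every barcode was thinned to 2000 UMIs (1 cycling and 553 other T barcodes of the 16 dogs were shallower and left out), the share with CD4 and no CD8A was a mean of 12.6% ± 8.83 (SD, n = 16) in cycling and 17.8% ± 4.62 (SD, n = 16) in other T cells. It was lower in 13 of 16 dogs, by 5.27 percentage points on average (p = 0.0151, exact permutation of the signs of the 16 differences, two-sided). Without thinning the sign turned, with 7.14 points more in cycling T cells (p = 0.0292 by the same permutation test), and with mixed barcodes removed the thinned difference was -4.01 points (p = 0.0519 by the same permutation test, 14 dogs). Thinned shares count coreceptor transcripts at an equal number of UMIs and are not shares of lineage cells. Pooled over all 17 dogs, 79.6% of cycling and 73.3% of other T barcodes had neither gene after thinning. The part of the larger RNA content of cycling T cells in these differences was not tested.

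The share with CD8A after thinning ranged from 0 to 30.8% (median 5.57%) in cycling and from 3.85 to 19.0% (median 9.06%) in other T cells of the 16 dogs. The dogs went both ways, 11 lower and 5 higher, with a mean difference of -2.34 points (p = 0.265, exact permutation of signs) that turned to 7.75 points without thinning (p = 0.0551). Between the groups, thinned CD8A shares in cycling T cells ran from 0 to 17.6% (median 5.88%, n = 7) in healthy and from 0 to 30.8% (median 0%, n = 9) in OS dogs (p = 0.540, exact Wilcoxon Rank Sum test with ties). With 10 to 32 cells in a dog these shares move in steps of several percentage points. Summed levels gave CD4 at 28.5 to 130 CPM in cycling against 77.0 to 185 CPM in other T cells, lower in 16 of 16 dogs (-0.92, SE 0.11, adjusted p = 5.87e-09 from edgeR), but at matched depth it was -0.46 and not called (adjusted p = 0.170). Of the 7 genes of the CD4 and CD8 lineages, 3 fell and 1 rose, with a median of -0.70, where 16.5 and 10.4% of all genes did, and at matched depth 1 fell and 0 rose. CD8A was at 9.67 to 122 CPM against 21.9 to 105 CPM and was not called (-0.44, adjusted p = 0.200 from edgeR).

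Within the lineage classes, levels in the cycling T cells are given as pooled CPM without a test. A pool can rest on a few dogs, so these levels are a description. Cytotoxic genes went both ways in the 69 CD8A cells. Of these cells 63 had UMIs of GZMB (granzyme B, which kills target cells through caspases), at 1548 CPM against 980 CPM in other T cells with CD8A. GZMA was at 536 against 502 CPM and GZMK at 280 against 251 CPM. Lower were the chemokine CCL5 (916 against 2471 CPM), KLRB1 (239 against 505 CPM) and TBX21 (31.7 against 47.3 CPM). In these cells CCL5 had UMIs in 10, KLRB1 in 12 and TBX21 in 13 of 16 dogs. IKZF2 (Helios) was at 211 against 389 CPM, and FOXP3, the factor of regulatory T cells, had 0 UMIs in these 69 cells.

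The 127 CD4 cells were higher in IKZF2, at 474 against 126 CPM in other T cells with CD4, in the inhibitory receptors CTLA4 (222 against 121 CPM) and PDCD1 (29.9 against 8.40 CPM), and in GZMB (62.1 against 14.8 CPM). They were lower in LEF1 (214 against 1185 CPM) and IL7R (233 against 1099 CPM). FOXP3 UMIs were found in 7 of them, in 5 dogs. The 109 cells with neither coreceptor had FOXP3 UMIs in 8 and were at 434 against 206 CPM for IKZF2, 23.3 against 4.23 CPM for LAG3 and 134 against 911 CPM for LEF1. With mixed barcodes kept, JCHAIN was at 100.3 against 6.32 CPM in the CD4 cells, 210 against 7.78 CPM in those with neither and 11.7 against 17.4 CPM in the CD8A cells, and the part of such barcodes in these values was not tested. LEF1 was lower than in the matching other T cells in each of the 3 classes (105 against 494 CPM with CD8A).

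For all cycling T cells together, 8 of 23 cytotoxic genes fell and 3 rose against all other T cells (median -0.34), where 16.5% of all genes fell and 10.4% rose. At matched depth 0 of 22 fell and 4 rose (median 0.33), where 12.5% of all genes did each. GZMB was at 69.9 to 1444 CPM (median 309) in cycling and at 74.7 to 906 CPM (median 213) in other T cells, with 9 dogs higher and 7 lower, and was not called (0.56, SE 0.28, adjusted p = 0.115 from edgeR), whereas at matched depth it was (1.48, SE 0.36, adjusted p = 0.00449). GZMA (-0.18) and GZMK (0.26) were not called, nor was CCL5 (-1.63, adjusted p = 0.0130). KLRD1, a natural killer receptor chain, fell by 1.37 and the effector factor ZEB2 by 1.31, and at matched depth neither was called, at -0.30 for KLRD1 and -0.98 for ZEB2 (adjusted p = 0.519 and 0.0358). PRDM1 (Blimp-1) rose in both comparisons, by 1.03 and 0.58, the second just past the fold limit. It is also among the plasma cell markers used to find mixed barcodes, and the part of plasma cell transcripts in its rise was not tested. IL2RB, a chain of the receptors of IL-2 and IL-15, rose by 0.71.

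**Figure D5:**
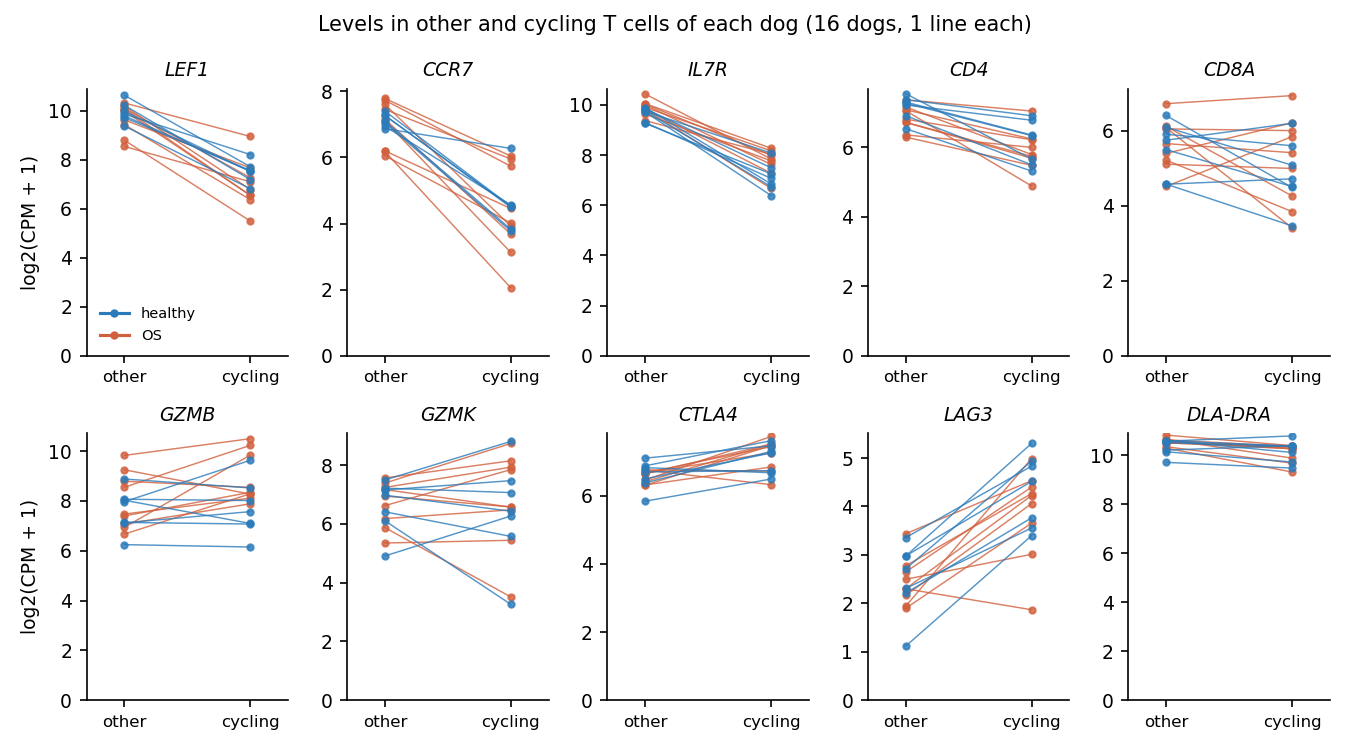
Log2(CPM + 1) of 10 genes (vertical axes) in the other and the cycling T cells (horizontal axis) of 16 dogs, 1 line per dog, blue for healthy and orange for OS. Lines of LEF1, CCR7, IL7R and CD4 fall in all 16 dogs, lines of LAG3 rise in 15, and those of GZMB, GZMK and CD8A cross.

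Of 12 genes of regulatory T cells 6 rose and 0 fell, with a median of 0.93, where 10.4% of all genes rose. At matched depth 2 of 10 rose and 1 fell, with a median of 0.40, near the 12.5% of all genes in each direction. CTLA4 was at 79.1 to 213 CPM in cycling against 56.3 to 137 CPM in other T cells, higher in 13 of 16 dogs (0.61, SE 0.11, adjusted p = 1.94e-05 from edgeR; 0.36 and not called at matched depth). The costimulatory receptors TNFRSF18 (1.07) and TNFRSF4 (1.02) and IKZF2 (0.83) rose too, the last at 0.43 and under the fold limit at matched depth. FOXP3 (1.64, adjusted p = 0.00123 from edgeR) and TIGIT (1.84) rested on 21 and 24 UMIs in cycling T cells, were higher in 9 of 16 dogs each, and were not called at matched depth. IL2RA, the high-affinity chain of the IL-2 receptor, was at a median of 8.34 against 14.1 CPM and was not called (-0.31, adjusted p = 0.493 from edgeR).

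Of 12 inhibitory receptors and exhaustion genes 4 rose and 0 fell, where 10.4% of all genes rose, and at matched depth 2 of 10 rose, where 12.5% did. LAG3, which binds MHC class II, was at 2.65 to 38.5 CPM (median 18.0) against 1.16 to 9.83 CPM (median 4.29), higher in 15 of 16 dogs (1.91, SE 0.22, adjusted p = 1.51e-09 from edgeR), and PDCD1 rose by 1.43. Both were also higher at matched depth (1.47 and 1.56). TOX2 rose by 1.41 but was at 0.06 at matched depth, and LAYN rested on 12 UMIs. The list's median was 0.06.

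Of 13 T helper genes 6 fell and 0 rose, where 16.5% of all genes fell, and at matched depth 2 of 12 fell, near the 12.5% of all genes. IL12RB2, the IL-12 receptor chain of Th1 cells, fell by 1.36 and CCR6, the chemokine receptor of Th17 cells, by 1.20 on 25 UMIs, and at matched depth neither was called, at -0.71 for IL12RB2 and -1.17 for CCR6 (adjusted p = 0.190 and 0.0173). GATA3, the factor of Th2 cells, was at 64.6 to 156 CPM in cycling and 62.7 to 137 CPM in other T cells and was not called (-0.07, adjusted p = 0.5798 from edgeR), though it rose by 0.59 against other T cells of matched depth with mixed barcodes kept, where 34.1% of 12738 genes were called. CD40LG, through which helper T cells license B cells, was at a median of 11.4 against 51.02 CPM (-1.66, SE 0.19, adjusted p = 1.47e-08 from edgeR), and the costimulator ICOS at 217 against 154 CPM (0.58, SE 0.11, adjusted p = 8.39e-05 from edgeR), just past the fold limit and not called at matched depth.

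Of 14 genes of activation and antigen presentation 5 fell and 1 rose, where 16.5 and 10.4% of all genes did, and the counts were the same at matched depth. The gene that rose was CD70, the ligand of CD27 and a marker of recent activation, at a median of 20.6 against 3.52 CPM and higher in 15 of 16 dogs (2.18, SE 0.23, adjusted p = 2.19e-10 from edgeR; 1.86 at matched depth). DLA-DRA, an MHC class II chain, was at 637 to 1772 CPM against 837 to 1812 CPM, at -0.32 and under the fold limit. CD86 (-1.48) and DLA-DOA (-2.14), genes of antigen-presenting cells, fell on 36 and 14 UMIs. Summed monocyte and dendritic cell markers lay between 35.9 and 3860 CPM in cycling and between 916 and 4660 CPM in other T cells; the part of such transcripts in these calls was not tested, and both genes were also lower without mixed barcodes (-1.98 and -1.81).

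Of 16 receptors that guide traffic 4 fell and 3 rose, where 16.5 and 10.4% of all genes did, and at matched depth 1 of 15 fell and 2 rose, where 12.5% of all genes did each. ITGA1, the integrin alpha chain that binds collagen, was at 25.8 to 150 CPM against 159 to 517 CPM without overlap (-1.999, SE 0.20, adjusted p = 3.66e-07 from edgeR), while its partner ITGB1 was at 235 to 801 CPM against 174 to 475 CPM and higher in 16 of 16 dogs (1.11, SE 0.11, adjusted p = 1.40e-08 from edgeR). Both kept their direction and call at matched depth (-1.82 and 0.96). CXCR4, the receptor of CXCL12, fell by 0.87 but was at -0.17 at matched depth. CCR10, a receptor of skin homing T cells and of plasma cells, rose by 2.54 with 146 UMIs and was at 0.50 and not called without mixed barcodes at matched depth (adjusted p = 0.404).

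Of 23 genes of oxidative phosphorylation 20 rose and 0 fell, with a median of 0.99, where 10.4% of all genes rose, and at matched depth 17 rose, with a median of 0.84, where 12.5% did. CYC1, a subunit of complex III, was at 28.6 to 178 CPM in cycling against 12.3 to 49.9 CPM in other T cells and higher in 16 of 16 dogs (1.77, SE 0.09, adjusted p = 2.43e-19 from edgeR), and cytochrome c (CYCS) at a median of 159 against 56.4 CPM (1.597). Against the same shares, 16 of 22 proteasome subunits rose and 0 fell, with a median of 0.92, and at matched depth 18 rose, with a median of 0.89. PSMB1 was at 337 to 617 CPM against 95.3 to 235 CPM without overlap (1.38, SE 0.06, adjusted p = 8.86e-21 from edgeR), and PSMA2 at 1.33.

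Of 12 glycolysis genes 6 rose and 1 fell, with a median of 0.60, where 10.4% of all genes rose and 16.5% fell, and the counts were the same at matched depth. GAPDH was at 674 to 2237 CPM against 123 to 762 CPM, higher in 16 of 16 dogs (1.62, SE 0.07, adjusted p = 3.79e-19 from edgeR), and ENO1 (enolase) rose by 1.47. The gene that fell was SLC2A3, a glucose transporter, at a median of 47.8 against 88.8 CPM (-1.03, SE 0.09, adjusted p = 7.46e-12 from edgeR). All 3 kept their direction at matched depth (1.66, 1.57 and -0.76).

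Genes that the study listed for its rarer T cells mostly fell or were not called in cycling T cells. The study chose these lists on these dogs, so their directions are not independent evidence. Of 10 genes listed for gamma-delta T cells 5 fell and 1 rose, where 16.5 and 10.4% of all genes did, and at matched depth 4 fell and 0 rose. RHEX had 1 UMI in all cycling T cells against 1173 in the other T cells of the same dogs. Against the same shares of 16.5 and 10.4%, 5 of 10 listed for double-negative T cells fell and 2 rose, CTLA4 and SLF1. The falls were led by TMEM132D (-3.28 on 14 UMIs) and KANK1 (-2.51 on 32 UMIs). SLF1, a DNA repair factor, was at 1.49 without overlap, which is a description, as for the DNA repair genes above. At matched depth 4 of the 10 double-negative genes fell and 1 rose. Of all genes, 12.5% fell and 12.5% rose at matched depth, and the counts of both lists should be read against that. Of 17 interferon response genes 2 rose, ISG15 (1.22) and XAF1 (0.77), and 1 fell, with a median of 0.01, where 10.4% of all genes rose and 16.5% fell. At matched depth 1 of 16 rose and 0 fell, and XAF1 lost its call.

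Of the genes in none of the lists, the 8 with the largest rise at a mean of at least 10 CPM were the core histones H4C13 (8.76), H2AC14 (8.75) and H3C8 (8.29), made in bulk when DNA is copied, DEPDC1 (8.72), the kinetochore protein CENPT (8.34), the scaffold IQGAP3 (8.13), the CDK1 inhibitor kinase PKMYT1 (7.92) and ENSCAFG00000010412 (7.99), a gene without a symbol. H4C13 lay between 70.7 and 337 CPM in cycling and at most at 1.31 CPM in other T cells, and of each of the 7 genes with a symbol the other T cells of all 16 dogs together held between 12 and 123 UMIs. All 8 were also called at matched depth, but the core histones, CENPT and PKMYT1 act in the cell cycle and can move with the gate genes. These rises are therefore a description, as in the cycle lists.

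At the lower end were COL6A5 (4 UMIs in cycling T cells against 9723 in other T cells), NKAIN2 (-4.01), ZNF536 (-3.998), the growth factor gene NRG2 (-3.93), PKIB (3 against 3482 UMIs) and ENSCAFG00000024259 (-4.08), a gene without a symbol. IL1B (-4.10) and PGLYRP1 (-3.97), genes of monocytes and granulocytes, were also among these 8, but without mixed barcodes they were at -0.97 and -0.54 and were not called. Neutrophil markers summed to 1205 to 3262 CPM in other and 1524 to 12206 CPM in cycling T cells, and their part in these values was not tested.

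Between healthy and OS dogs no gene was called in the cycling T cells. Of 10168 genes tested with edgeR, 0 (0.0%) were past both thresholds and 355 had a p below 0.05 before adjustment. For DESeq2 these numbers were 0 and 265. GZMB, with 69.9 to 792 CPM (median 189) in 7 healthy and 235 to 1444 CPM (median 324) in 9 OS dogs, had a log2 fold change of 1.12 (SE 0.56) and IL7R, with 82.5 to 269 and 101 to 308 CPM, of 0.58, and neither passed the adjustment over all genes. The ranges of both genes overlapped between the groups. LEF1 was at a median of 184 CPM in healthy and 110 CPM in OS dogs, CCR7 at 21.9 and 15.2 CPM, CTLA4 at 152 and 173 CPM, and DLA-DRA at 1320 and 1231 CPM.

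Over the lists, 0 genes were called in any, and the medians of OS against healthy were close to 0 for oxidative phosphorylation (0.08), the proteasome (-0.01), glycolysis (0.00) and T cell receptor genes (0.03). Interferon response genes had a median of 0.63, with 16 of 16 tested above 0 and 3 at an unadjusted p below 0.05, and cytotoxic genes one of 0.36, with 15 of 22 above 0. Over all 10168 genes the median was -0.003, and 355 had an unadjusted p below 0.05. Genes of a list can move together in a dog, so these counts are a description. The gate genes themselves were at -0.35 to -0.06.

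A count of 0 does not show that the groups were alike. The difference of cycling minus other T cells was also set against disease. Of 15583 genes, edgeR called 0 (0.0%) for an interaction of population and group, and 682 had a p below 0.05 before adjustment. For DESeq2 these numbers were 0 and 346.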

How the data were processed

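The deposited matrices hold raw UMI counts per gene and barcode, which the authors made with Cell Ranger 7.0.0 on CanFam3.1 with a filtered Ensembl annotation. They aligned with and without introns, and which version these counts hold is not known. Their removal of doublets (DoubletFinder), red cells and platelets came after these files. The gene lists and the members were chosen with earlier results of these data known.

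Counts were summed per dog over cycling and over other T cells. Genes with at least 10 counts were tested with edgeR 4.0.16 (TMM, robust quasi-likelihood test, Benjamini-Hochberg adjustment), with the dog as a block for cycling against other T cells, and DESeq2 1.42.0 was the alternative. Shares were compared by exact Wilcoxon and exact permutation tests over dogs (scipy 1.17.1). Scrublet (scanpy 1.11.5) marked the highest 0.8% of scores per 1000 barcodes of a library as doublets, which stayed in. Named genes were the 3 with the largest rise in each cycle list, up to 2 called per direction in each other list, 8 per direction outside the lists at a mean of at least 10 CPM, and 14 always named. Other genes of the lists, and the genes given by lineage class, were named after their values were seen. Scripts were tested on simulated data, in which the fit of the interaction recovered few of the changed genes, so that its count says little about whether the groups differed. Nothing in the labels says that a dog was sampled more than once. E2F1, CCNB1, BIRC5, MX1 and some other listed genes were not analysed here, and a few named by the rule are not reported here.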

Additional observations from a re-analysis of the deposited data

Results flagged for a closer look

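In cycling T cells, 2 of 38 groups of values had a dog at an end that stood apart by Dixon's test, where chance gives about 1 in 20 groups. CCR7 in the healthy dogs was highest in healthy dog 2 at 6.27 on the log2(CPM + 1) scale, on 24 UMIs, where the next dog was at 4.56 and the lowest at 3.78 (a gap of 0.684 of the range, n = 7). GZMA in the OS dogs was lowest in OS dog 6 at 0, where the next dog was at 5.31 and the highest at 9.06 (a gap of 0.586 of the range, n = 9). OS dog 6 had 0 UMIs of GZMA in 10 cycling T cells, which is the floor of this scale.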

How the results depend on the processing

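Cycling against other T cells gave 4196 called genes, 2549 with a minimum of 25 cells per dog (4 dogs), 2755 within the study's limits, 6958 at an adjusted p below 0.05 with no fold limit, and 4057 to 4273 leaving out a dog. OS against healthy gave 0 under every setting but the replicate block (5: NFKBID, PYCARD, NRG1 and PLBD1 higher, IGKC lower), and 0 to 0 leaving out a dog. The interaction gave 17 with a minimum of 25 cells, 1 within the study's limits (TRPM1), 1 without doublets (no symbol), 4 without mixed barcodes at matched depth (CRISP2, CAMP, LTF and a gene without symbol), 1 at an adjusted p below 0.05 with no fold limit, and 0 to 0 leaving out a dog. The difference of median shares, -0.06 points, was 0.0142 as a percentage of all kept barcodes, -0.341 at 3 gate genes (p = 0.475, exact), -0.217 at 3 gate genes after thinning to 2000 UMIs (p = 0.0878, exact), -0.152 at 5 gate genes (p = 0.161, exact) and -0.19 to 0.0358 leaving out a dog, that of S to G2M -0.0203 to 0.15. The thinned CD8A difference between groups was 1.25 at 3 gate genes, and -6.07 to -2.76 leaving out a dog. Within dogs, CD8A was 7.75 unthinned, 1.02 at 4000 UMIs and -3.39 to -1.61 leaving out a dog, and CD4 was 7.14 unthinned, -8.48 at 4000 UMIs, -4.01 without mixed barcodes and -6.22 to -4.58 leaving out a dog. Of 1409 values for 94 genes 12 changed sign, of which only GATA3 at matched depth with mixed barcodes kept was called: in that setting CXCR4 (0.0146), XAF1 (-0.17), CD8A (0.67), GZMA (1.25) and GATA3 (0.59), at matched depth without mixed barcodes CD8A (0.00724) and GZMA (1.03), without mixed barcodes GZMA (0.00281), within the study's limits IL2RA (0.12) and GATA3 (0.00925), with a minimum of 25 cells GZMB (-0.10), and against other T cells without gate genes GATA3 (0.00522). A further 66 lost and 8 gained a call. The causes were not tested. Replicate numbers shared by healthy and OS dogs do not pair them (correlation of deviations -0.22 to 0.19 over 6 numbers); with the replicate block the share differed by -0.05, S to G2M by 0.04, CD8A by -6.07, and 5 and 0 genes were called. The planned marker filter left 64 cycling T cells and 1 dog with 10, so that no fit was run with it.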
